A study of Mus musculus with 8 samples.

Results

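The G2/M and mitosis genes are 35 genes whose products carry a cell from the end of DNA replication through chromosome segregation to the separation of the daughter cells. A gene was taken where a row of the array table mapped to a single symbol and that symbol was on the list; 34 of the 35 were measured, each by 1 row, out of 22180 genes in all. Ccnb1, which encodes cyclin B1, had no row of its own and was not measured. The study asked how ablative radiotherapy of a pancreatic tumour alters the transcripts of inflammatory monocytes and macrophages in it. Female C57BL/6 mice, 8 weeks old, carried a tumour grown under the skin for 14 days from cell line 152. That line came from tumours of KPC mice, which bear the alleles KrasLSL-G12D/+ and Trp53LSL-R172H/+ with Pdx1-Cre, so those alleles belonged to the tumour cells of both groups and Cre was driven by the pancreatic Pdx1 promoter in the mice of origin. In the irradiated group 4 mice received 20 Gy from the Small Animal Radiation Research Platform, a focused X-ray device, and 4 mice of the other group were sham-treated. At 1 day after treatment CD45+ CD11b+ Ly6Chi cells were sorted from each tumour, and their amplified RNA was read on 1 Affymetrix array per mouse. All tumours came from 1 line, so the spread below is that between mice.

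Cells build these transcripts once per division. The activator FOXM1 and the MuvB complex with B-MYB turn the genes on late in the cycle, while the DREAM complex, which p53 engages through the CDK inhibitor p21, holds them off in resting cells. Monocytes are largely non-dividing cells supplied by dividing precursors in the bone marrow, whereas activated T cells and tumour cells divide in the tumour, so the genes serve in tissue as markers of dividing cells of any type.

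The genes share promoter features that their choice did not use. Promoter sequences of 29 of the 35 genes, 31 promoters in all, were present in the RefSeq set for GRCm38.p6; Ccna2, Aurkb, Kif20a, Tpx2, Foxm1 and Pbk had no entry. A pair of short motifs known from late cell cycle promoters were searched on both strands: the CHR, as TTTGAA or TTTAAA, which MuvB binds, and CCAAT, which NF-Y binds. In the window from 250 bases before to 50 after the start, a CHR was found in 27 of the 31 promoters (87.1%), against 27.6% of all 32851 promoters. CCAAT was found in 24 (77.4%), against 37.4%, and both motifs in 23 (74.2%), against 10.7%. At least 2 CCAAT motifs occurred in 17 (54.8%), against 11.7%. In the 250 bases upstream alone, a CHR was found in 16 of the 31 (51.6%), against 25.2% of all promoters, CCAAT in 24, against 33.9%, and both in 14 (45.2%), against 8.78%. These shares describe letters in a window, and sites of binding were not measured. The 250 bases upstream of 4 genes are printed, with CHR and CCAAT matches on either strand in capitals. Top2a and Ube2c were taken because they combined many CCAAT motifs with high slopes on Cd3g below. Cdk1 was taken because it held both motifs with a smaller slope, and Anln because it had the highest slope and neither motif in these bases. Of the 4 slopes only that of Anln passed the test. Top2a lies on the minus strand at chr11:99024190-99024439, Ube2c on the plus strand at chr2:164769679-164769928, Cdk1 on the minus strand at chr10:69352913-69353162 and Anln on the minus strand at chr9:22389207-22389456. Each is written 5′ to 3′ in the direction of its gene, and adjoining motifs can overlap.
Top2a: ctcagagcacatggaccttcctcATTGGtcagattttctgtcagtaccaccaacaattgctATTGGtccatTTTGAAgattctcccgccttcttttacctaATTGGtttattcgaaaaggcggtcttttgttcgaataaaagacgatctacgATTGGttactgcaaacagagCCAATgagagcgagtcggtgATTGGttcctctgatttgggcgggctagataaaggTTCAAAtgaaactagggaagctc
Ube2c: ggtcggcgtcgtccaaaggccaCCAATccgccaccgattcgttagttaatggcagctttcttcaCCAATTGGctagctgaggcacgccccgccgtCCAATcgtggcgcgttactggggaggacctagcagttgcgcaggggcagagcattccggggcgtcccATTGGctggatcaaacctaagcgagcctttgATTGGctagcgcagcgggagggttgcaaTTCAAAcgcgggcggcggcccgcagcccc
Cdk1: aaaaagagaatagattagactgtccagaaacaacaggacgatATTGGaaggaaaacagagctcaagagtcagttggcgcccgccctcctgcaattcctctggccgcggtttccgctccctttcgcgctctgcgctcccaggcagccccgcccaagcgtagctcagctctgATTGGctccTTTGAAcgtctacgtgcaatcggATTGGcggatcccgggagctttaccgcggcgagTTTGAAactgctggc
Anln: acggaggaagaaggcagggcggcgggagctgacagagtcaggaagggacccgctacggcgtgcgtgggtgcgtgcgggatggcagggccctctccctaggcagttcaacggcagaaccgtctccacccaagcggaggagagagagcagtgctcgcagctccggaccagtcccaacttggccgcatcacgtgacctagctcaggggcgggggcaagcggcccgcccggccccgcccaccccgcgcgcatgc
Top2a had 6 CCAAT and 2 CHR motifs in these bases, Ube2c 6 and 1, Cdk1 3 and 2, and Anln 0 and 0.

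Values are log2 levels as deposited, and they are compared between arrays for 1 gene at a time. Array medians lay between 4.68 and 4.73, and arrays correlated pairwise at 0.976 to 0.988 over all rows, so none was a duplicate of another. The sort markers were high in every mouse: Ptprc, which encodes CD45, was at 11.66 ± 0.05 in sham and 11.62 ± 0.09 in irradiated mice, Itgam, which encodes CD11b, at 10.94 ± 0.18 and 11.12 ± 0.12, and Ly6c2 at 11.55 ± 0.42 and 11.76 ± 0.71 (SD, n = 4 per group here and throughout). The mean of 10 monocyte and macrophage genes stood between 10.95 and 11.14 in all 8 mice. Markers of other cell types varied between mice. The mean of 20 T and NK cell genes ran from 5.31 to 7.40, that of 12 neutrophil precursor genes from 5.21 to 7.95 and that of 7 epithelial genes from 6.24 to 7.57. Sham mouse 3 had the highest value of each of these 3 means. Among the 34 genes 4 had a mean level under 4.70, the median of all rows.

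No G2/M or mitosis gene passed the test for a difference between irradiated and sham mice. In the limma fit over all 22180 genes 0 of the 34 had a Benjamini-Hochberg adjusted p under 0.05 (all genes: 0.0%), and their adjusted p ran from 0.819 to 0.999. At an unadjusted p under 0.05 there was 1, Ndc80, against 6.07% of all genes. Irradiated mice had the higher mean in 16 genes and the lower in 18, where 42.2% of all genes were higher. The median difference was -0.01, against -0.03 over all genes. In 0 of the 34 did the groups stand clear of each other, against 3.68% of all genes. The design left wide limits: 95% intervals reached a median of 0.59 to either side of the estimate on the log2 scale, from 0.24 for Bub1b to 0.94 for Anln. The spread within groups was larger than for most genes, with a median SD of 0.46 against 0.19 over all genes. In sorted bulk RNA, fewer dividing cells and less of these transcripts per cell cannot be told apart. Leaving out sham mouse 3 or irradiated mouse 2 put 24 genes higher in irradiated mice, and leaving out irradiated mouse 4 put 8 higher. With sham mouse 1, 2 or 4 or irradiated mouse 1 left out the count was 9. With 1 mouse left out, the count over all 22180 genes ran from 9075 without sham mouse 3 to 10227 without sham mouse 4.

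**Figure D1:**
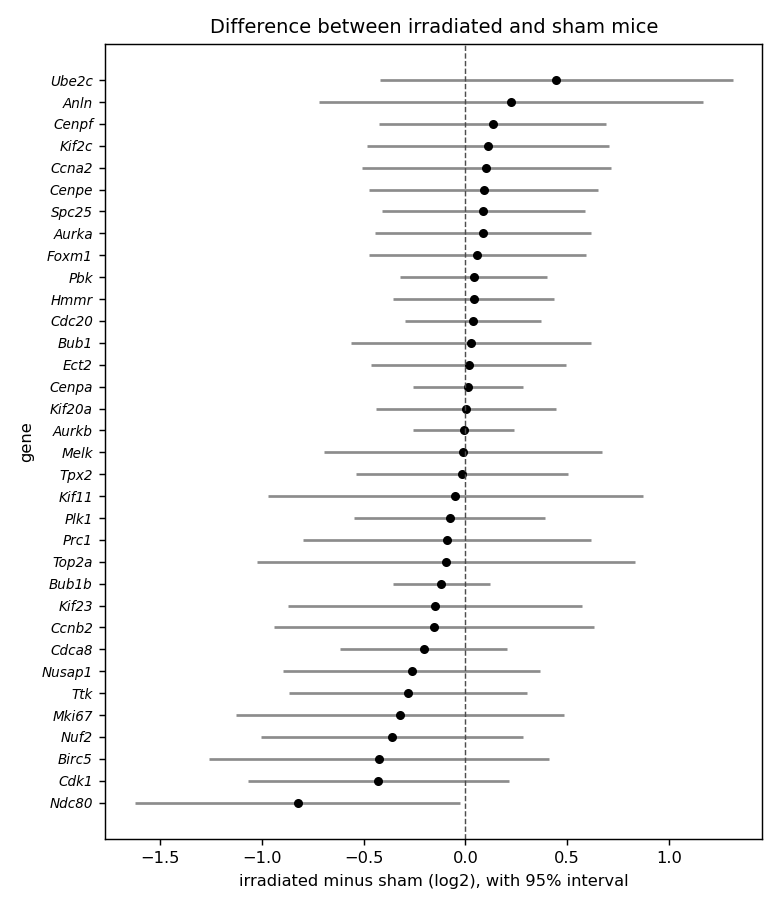
Irradiated minus sham difference in log2 level for each of the 34 genes (points) with its 95% interval from limma (bars), ordered by size; the dashed line marks no difference. Intervals of 33 genes include 0, and that of Ndc80 ends at -0.03.

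The cyclins and their kinase drive entry into mitosis. Cdk1, the kinase partner of cyclins A and B, stood, in order of mouse number, at 7.13, 7.15, 7.16 and 7.65 after sham treatment and at 7.59, 5.96, 6.87 and 6.97 after irradiation, the order used throughout. Irradiated mouse 2 was far below the other 7, and irradiated mouse 1 lay within the sham range. The difference was -0.43 ± 0.29 (SE), with a 95% interval of -1.07 to 0.21 and an adjusted p of 0.857 by limma. Ccnb2, cyclin B2, ran from 6.73 to 8.09 in sham mice and from 6.21 to 7.65 in irradiated mice, with sham mouse 3 highest and irradiated mouse 2 lowest. Ccna2, cyclin A2, ran from 6.54 to 6.95 and from 5.88 to 7.43. Here too irradiated mouse 2 was the lowest of the 8, but irradiated mouse 4 was the highest.

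Mki67, the Ki-67 protein that coats mitotic chromosomes, was at 6.60, 5.84, 7.88 and 6.83 in the sham mice and at 6.87, 6.10, 6.23 and 6.67 in the irradiated mice. Its highest and lowest levels were both in sham mice, and the irradiated mice lay between them. The difference of -0.32 ± 0.36 (-1.13 to 0.48) had an adjusted p of 0.909 by limma. Top2a, the topoisomerase that untangles sister DNA, was at 6.02, 6.65, 7.27 and 6.31 in sham mice and at 7.34, 5.26, 6.29 and 6.98 in irradiated mice. The groups overlapped, with irradiated mice at both ends. Its difference was -0.10 ± 0.42 (-1.02 to 0.83), with an adjusted p of 0.977 by limma.

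FOXM1 is the transcription factor that activates many of the other genes. Foxm1 was at 4.63, 4.02, 5.29 and 4.24 in sham mice and at 4.72, 4.52, 4.78 and 4.38 in irradiated mice, a mean of 4.54 ± 0.56 against 4.60 ± 0.18. Both means lie below the median of all rows, and the sham mice enclosed the irradiated ones. The difference was 0.06 ± 0.24 (-0.48 to 0.59; limma adjusted p = 0.975). Plk1, the kinase that matures centrosomes and triggers mitotic entry, was at 5.11, 4.89, 5.65 and 4.88 in sham mice and at 5.35, 4.75, 4.75 and 5.37 in irradiated mice. Irradiated mice 1 and 4 stood above irradiated mice 2 and 3, and the difference of -0.08 ± 0.21 (-0.55 to 0.39) had an adjusted p of 0.965 by limma. Aurka, the spindle pole kinase Aurora A, ran from 5.64 to 6.58 and from 5.94 to 6.72. Melk and Pbk, both mitotic kinases, differed by -0.01 and 0.04 between the groups.

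The spindle checkpoint holds anaphase until every kinetochore is attached. Bub1, a checkpoint kinase, was at 5.21, 5.19, 5.84 and 5.09 in sham mice and at 5.80, 4.64, 5.20 and 5.81 in irradiated mice. Sham mouse 3 and irradiated mice 1 and 4 stood together above the other 5. Bub1b, which encodes the inhibitor BUBR1, varied little, from 6.35 to 6.72 in sham and from 6.27 to 6.41 in irradiated mice. Ttk, the kinase MPS1 that recruits the checkpoint, differed by -0.28 ± 0.26. Release from the checkpoint runs through the anaphase-promoting complex. Ube2c, its ubiquitin-conjugating enzyme, had the largest difference upwards of the 34: 6.28, 6.76, 7.41 and 6.53 in sham mice and 7.86, 6.02, 7.06 and 7.82 in irradiated mice. Irradiated mice 1 and 4 exceeded every sham mouse, irradiated mouse 2 was below every one, and the difference of 0.45 ± 0.39 (-0.42 to 1.31) had an adjusted p of 0.887 by limma. Cdc20, the activator of the complex, differed by 0.04 ± 0.15.

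Ndc80 and Nuf2 pair in the kinetochore complex that grips microtubules. Ndc80 was at 5.41, 5.38, 6.47 and 5.66 in sham mice and at 5.87, 4.45, 4.19 and 5.12 in irradiated mice. Of the irradiated mice 3 were below all sham mice, and irradiated mouse 1 was above 3 of them. Its mean was 1.77-fold lower after irradiation, a difference of -0.82 ± 0.36 (-1.62 to -0.03) with an adjusted p of 0.819 by limma. Nuf2 was at 5.17, 5.60, 6.20 and 5.57 in sham mice and at 5.88, 4.49, 5.26 and 5.47 in irradiated mice. The groups overlapped, with sham mouse 3 above and irradiated mouse 2 below all the others. The difference of -0.36 ± 0.29 (-1.01 to 0.28) had an adjusted p of 0.878 by limma. Spc25, of the same complex, differed by 0.09 ± 0.23. The motor Cenpe and the kinetochore protein Cenpf differed by 0.09 and 0.13. Cenpa, the histone that marks centromeres, was steady at 7.79 to 8.31 over the 8 mice, with the lowest and the highest both in sham mice.

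The chromosomal passenger complex corrects faulty attachments and guides cytokinesis. Birc5, its subunit survivin, was at 6.04, 6.53, 7.21 and 6.43 in sham mice and at 7.02, 5.12, 5.88 and 6.48 in irradiated mice. Irradiated mice 2 and 3 were below all sham mice and irradiated mouse 1 below only sham mouse 3. The difference was -0.43 ± 0.38 (-1.26 to 0.41), with an adjusted p of 0.890 by limma. Cdca8, the subunit borealin, was at 4.95, 5.16, 5.74 and 5.65 and at 5.31, 5.12, 4.93 and 5.33 in the same order. Sham mice 3 and 4 were above every irradiated mouse, but the difference of -0.20 ± 0.18 (-0.61 to 0.21) had an adjusted p of 0.893 by limma. Aurkb, the kinase of the complex, had the smallest range of the 34, 0.32 over the 8 mice.

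Among the spindle motors and microtubule binders, Hmmr, which organises spindle poles, was at 4.06, 4.35, 4.83 and 4.15 in sham mice and at 4.46, 4.10, 4.34 and 4.65 in irradiated mice. The 2 groups covered nearly the same span, and the difference was 0.04 ± 0.18 (-0.36 to 0.44; limma adjusted p = 0.978). Kif11, the motor that pushes spindle poles apart, ran from 5.18 to 6.01 in sham mice and from 4.04 to 6.14 in irradiated mice. The assembly factor Tpx2, the microtubule bundler Nusap1 and the depolymerase Kif2c differed by -0.02, -0.26 and 0.11. For cytokinesis, Anln, which encodes the contractile ring scaffold anillin, was at 5.00, 6.19, 6.97 and 5.53 in sham mice and at 6.84, 5.27, 6.05 and 6.44 in irradiated mice. The extremes were both sham mice, and the difference of 0.23 ± 0.42 (-0.72 to 1.17) had an adjusted p of 0.948 by limma. The midzone bundler Prc1, the motors Kif20a and Kif23 and the RhoA activator Ect2 differed by between -0.15 and 0.02.

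Differences between mice were large and were shared by most of the genes. The range of a gene over the 8 arrays had a median of 1.27, against 0.58 over all genes, and reached 2.28 in Ndc80. The mean of the 34 genes was 5.59, 5.70, 6.29 and 5.67 in the sham group, against 6.12, 5.17, 5.65 and 6.02 in the irradiated group. Sham mouse 3 was the highest of all 8 in 18 genes and irradiated mouse 1 in 8, while irradiated mouse 2 was the lowest in 20. Within the sham group mouse 3 was highest in 28 genes, and within the irradiated group mouse 2 was lowest in 28. Irradiated mice 1 and 4 both exceeded irradiated mice 2 and 3 in 28 genes. For these counts of highest and lowest mice the shares over all genes were not computed. As a description, pairs of the genes correlated over the 8 arrays with a median r of 0.63, and 519 of the 561 pairs were positive; pairs of any genes had a median of 0.01. These points share arrays, and 8 arrays are few. Ccnb2, Bub1 and Top2a followed the mean of the other genes most closely (r = 0.98, 0.97 and 0.97). Cenpa (-0.22) and Aurkb (0.14) did so least.

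**Figure D2:**
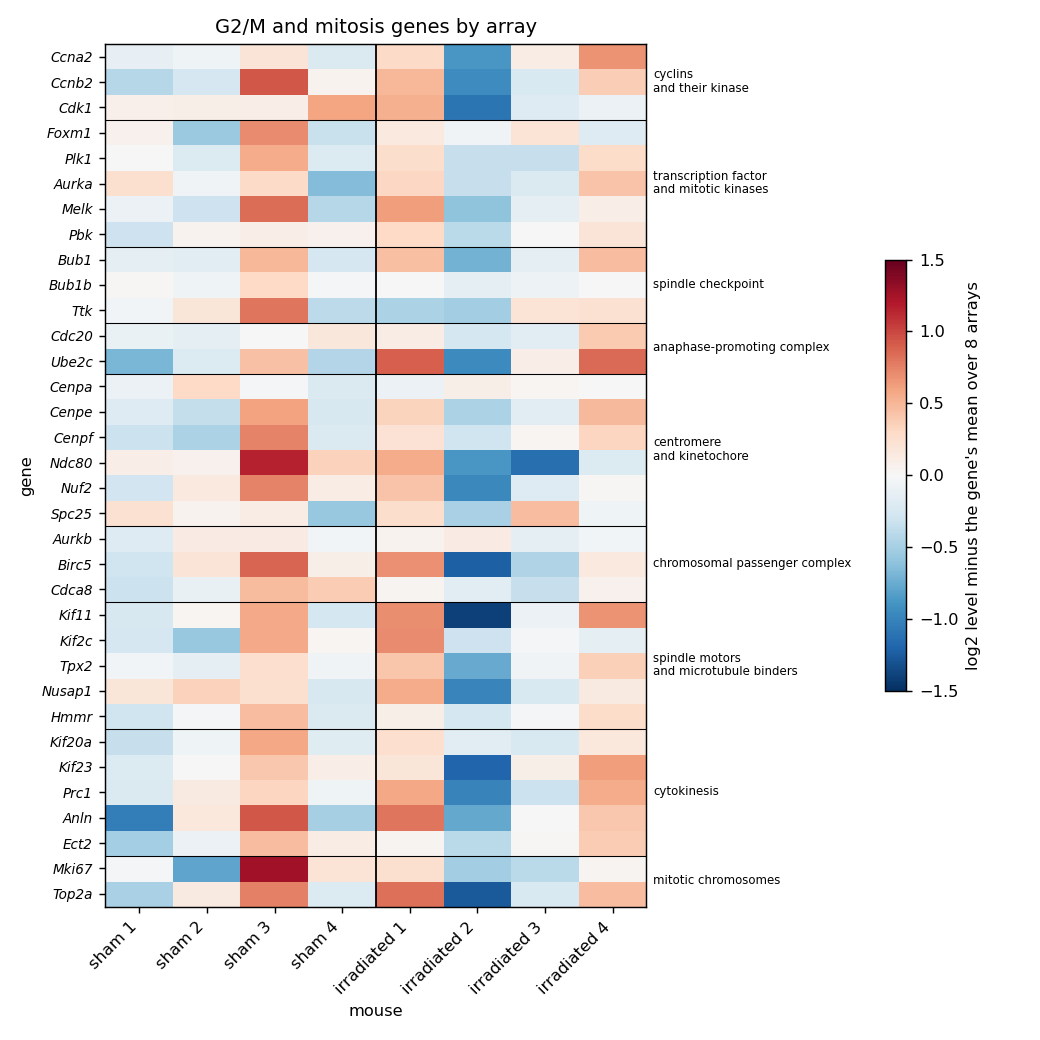
Log2 level of each of the 34 genes in each of the 8 mice, as the distance from that gene's mean over the arrays (red above, blue below), with genes grouped by role and the sham mice left of the line. Red fills much of the sham 3 column, where 18 genes have their highest level, and blue much of the irradiated 2 column, where 20 have their lowest.

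Levels of the mitosis genes went with those of the T cell gene Cd3g, a chain of the CD3 complex of the T cell receptor, over the arrays. Cd3g was at 5.53, 9.53, 9.66 and 6.36 in sham mice and at 7.70, 4.67, 5.74 and 7.89 in irradiated mice, a range of 4.99. Sham mice 2 and 3 were highest and irradiated mouse 2 lowest, the mouse with the lowest mitosis genes. With the group held as a term, the slope of a gene on Cd3g was positive in 34 of 34 genes, where it was positive in 45.6% of all genes. Its median was 0.14 log2 units per log2 unit of Cd3g, against -0.01 over all genes. The slope had an unadjusted p under 0.05 in 21 of the 34, all positive, against 4.98% of all genes. After adjustment over 22179 genes 1 of the 34 passed, against 0.473% of all genes. The 21 were 11 without irradiated mouse 2, 13 without sham mouse 3 and 6 without both, the last chosen after seeing the data. Over all 22179 genes 2118, 2014 and 1681 had an unadjusted p under 0.05 there, of either sign, against 2370 in the main fit. The adjusted count was 7 without sham mouse 2, where it was 116 over all genes, against 105 in the main fit.

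The gene that passed was Anln, which rose by 0.38 ± 0.06 (SE; 95% interval 0.26 to 0.50) per log2 unit of Cd3g, with an adjusted p of 0.023 by limma. Within sham mice its 4 levels stood in the same order as those of Cd3g, and sham mouse 1 was the lowest of all 8. Its adjusted p was 0.127 without sham mouse 1, 0.108 without sham mouse 3, 0.0653 without sham mouse 4, 0.0577 without irradiated mouse 1 and 0.065 without irradiated mouse 2. The next genes did not pass. Top2a had a slope of 0.34 ± 0.07 (0.18 to 0.51; limma adjusted p = 0.101) and Ube2c one of 0.31 ± 0.07 (0.15 to 0.47; limma adjusted p = 0.123). Birc5 had a slope of 0.29 ± 0.07 (limma adjusted p = 0.160), Nuf2 of 0.22 ± 0.06 (0.189) and Hmmr of 0.13 ± 0.04 (0.200). In Top2a the lowest level, 5.26, was in the mouse with the lowest Cd3g, irradiated mouse 2, and the highest, 7.34, in irradiated mouse 1.

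Roles differed in how many of their genes had an unadjusted p under 0.05. All 5 cytokinesis genes did, with slopes of 0.14 to 0.38, and so did 4 of the 5 spindle motors and microtubule binders. The count was 3 of 6 for centromere and kinetochore, 3 of 5 for FOXM1 and the mitotic kinases, 2 of 3 for cyclins and kinase, and 1 each of 3 checkpoint, 3 passenger complex, 2 anaphase-promoting complex and 2 chromosome genes. Differences between roles were not tested. Mki67 (0.11 ± 0.11; limma adjusted p = 0.778), Cdk1 (0.10 ± 0.09; 0.752), Plk1 (0.12 ± 0.05; 0.467) and Foxm1 (0.03 ± 0.08; 0.943) had smaller slopes. Sham mouse 2 stood apart in Mki67 and Foxm1: with Cd3g at 9.53 it had the lowest level of all 8 mice in both, 5.84 and 4.02.

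**Figure D3:**
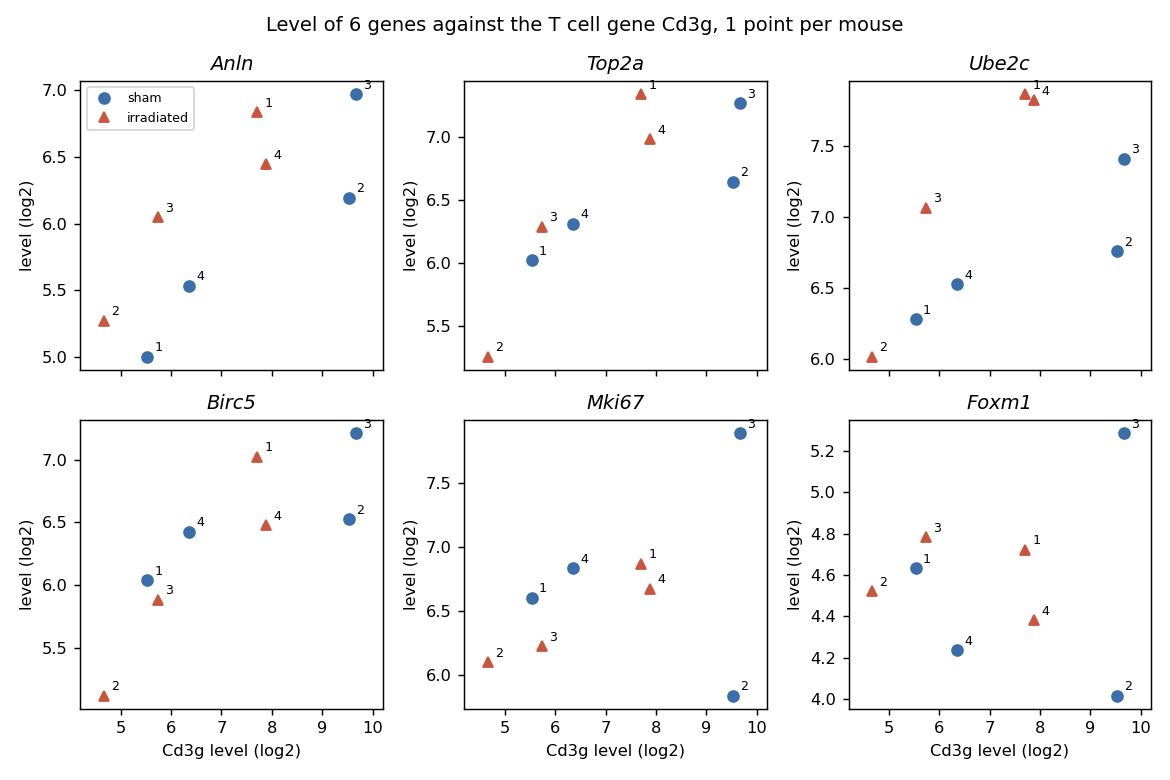
Log2 level of 6 of the genes (vertical axes) against the log2 level of Cd3g on the same array (horizontal axes), with circles for sham and triangles for irradiated mice, numbered by mouse. Irradiated mouse 2, lowest in Cd3g, is lowest in Top2a, Ube2c and Birc5, and sham mouse 2, high in Cd3g, is lowest in Mki67 and Foxm1.

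Without the group term, Pearson's r with Cd3g over the 8 arrays had a median of 0.63 in the 34 genes, from 0.08 in Foxm1 to 0.83 in Birc5, and of -0.02 over all genes. By exact permutation over all 40320 orders 10 of the 34 had a raw p under 0.05, all positive, against 4.73% of all genes. Adjusted over 22179 relations, 0 passed (lowest exact adjusted p = 0.373). Spearman's rho had a median of 0.64, and 9 genes had an exact raw p under 0.05 (lowest adjusted p = 0.434). Birc5 had r = 0.83 (exact permutation p = 0.00814, adjusted 0.381) and rho = 0.90 (exact p = 0.00456, adjusted 0.434). Without sham mice 2 and 3, the 2 arrays farthest from the median of Cd3g, the median r was 0.85 and 32 of 34 were positive. Mki67 moved from 0.39 to 0.76, Foxm1 from 0.08 to -0.14 and Cenpa from 0.34 to -0.34. The positive correlation of most genes thus did not need those 2 mice. Irradiated mouse 2, the lowest in Cd3g, stayed in that set, so dependence on it was not examined there.

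Epithelial transcripts moved with the same arrays. The mean of the 7 epithelial markers, all measured, was 6.55, 6.92, 7.57 and 6.53 in sham mice and 7.35, 6.24, 6.86 and 7.04 in irradiated mice. Krt18, a keratin of simple epithelia, was at 7.56, 8.63, 9.55 and 8.11 in sham mice and at 9.04, 7.26, 8.45 and 8.47 in irradiated mice. Krt8, its partner, was at 7.25, 7.86, 8.67 and 7.26 and at 8.49, 6.54, 7.87 and 7.98. In both keratins sham mouse 3 was highest and irradiated mouse 2 lowest, as in the mean of the mitosis genes. Epcam, an epithelial adhesion protein, ran from 4.98 to 6.03 with the same mice at the ends, while Cdh1, E-cadherin, did not follow and was lowest in irradiated mouse 3 (8.57). The epithelial mean itself correlated with Cd3g at r = 0.81 (exact permutation p = 0.0173, adjusted over 2 relations 0.0345) and rho = 0.83 (exact p = 0.0154, adjusted 0.0308). Without the 2 mice farthest from the median of Cd3g, r was 0.87. The epithelial mean and the precursor mean below were chosen after seeing the data. The adjustment over 2 relations does not cover that choice.

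With the epithelial mean in place of Cd3g, a fit added after seeing the data, the slope was positive in 34 of 34 genes (all genes: 44.7%). At an unadjusted p under 0.05 there were 26, all positive, against 5.29% of all genes. After adjustment 6 passed, against 0.32% of all genes: Anln, Top2a, Birc5, Nuf2, Ube2c and Melk. This fit was not repeated with mice left out. Sham mouse 3 and irradiated mouse 2 were at the ends of the epithelial and mitosis means alike. Anln had a slope of 1.54 ± 0.17 (limma adjusted p = 0.0131) and Melk of 1.06 ± 0.17 (limma adjusted p = 0.0474) per log2 unit of the epithelial mean. With both terms and the group in 1 fit, also added after seeing the data, the slope on Cd3g was positive in 18 of 34 genes (all genes: 49.6%), with a median of 0.02. None of these positive slopes had an unadjusted p under 0.05 (all genes: 2.11%), while 2 negative ones did, Foxm1 and Kif2c (all genes: 2.24%). The slope on the epithelial mean was positive in 32 of the 34 (all genes: 47.2%) and had an unadjusted p under 0.05 in 15, all positive, against 2.36%. In that fit 0 genes passed after adjustment by limma for either term. It estimates 4 coefficients from 8 arrays with terms that correlate at 0.81. Which cells held the mitotic transcripts was not tested.

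**Figure D4:**
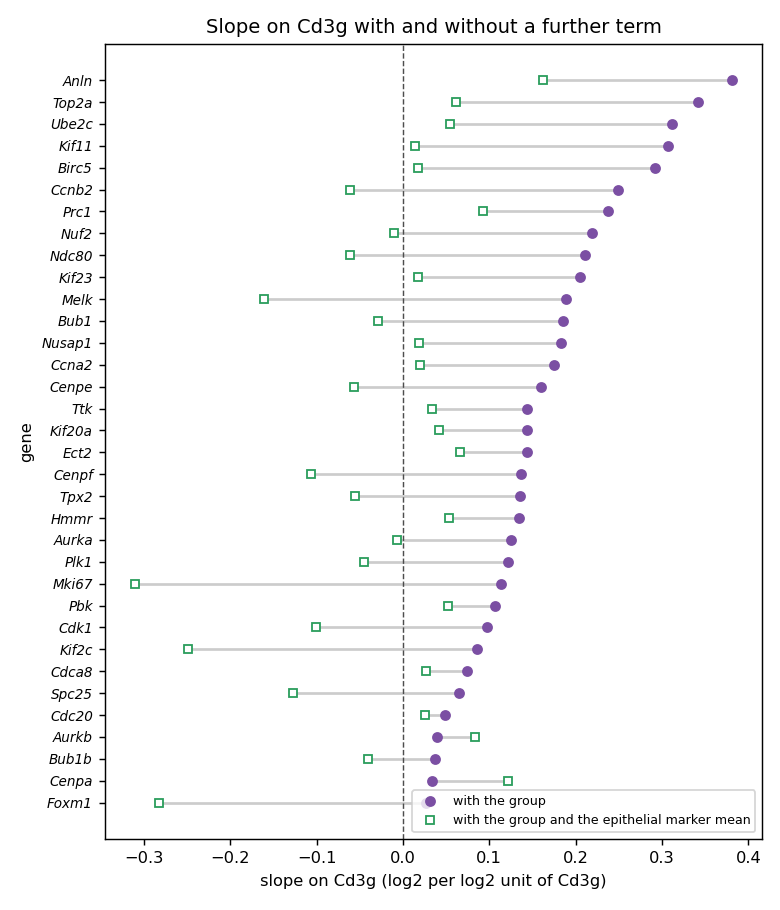
Slope of each of the 34 genes on Cd3g, in log2 units per log2 unit, from limma with the group as a term (filled circles) and with the group and the epithelial marker mean as terms (open squares). All 34 circles lie right of 0, against 18 of the squares.

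Of the 12 neutrophil precursor markers 10 were highest in sham mouse 3, as were 18 of the 34 mitosis genes. The share over all genes was not computed. Camp, a granule protein of immature neutrophils, was at 3.08, 8.02, 10.10 and 3.34 in sham mice and at 3.11, 3.69, 3.57 and 3.08 in irradiated mice. Sham mice 2 and 3 were high in it and the other 6 mice low. Mpo and Elane, of earlier precursors, were high in sham mouse 3 only (7.06 and 6.56). The precursor mean gave positive slopes in 32 of 34 genes (all genes: 43.8%), with an unadjusted p under 0.05 in 7, all positive, against 3.99%, and in 0 after adjustment by limma, against 0.018% of all genes. Its r with Cd3g was 0.66 (exact permutation p = 0.0436, adjusted 0.0436) but rho was 0.26 (exact p = 0.536, adjusted 0.536), and r was -0.76 without sham mice 2 and 3, so that relation rested on those mice.

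**Figure D5:**
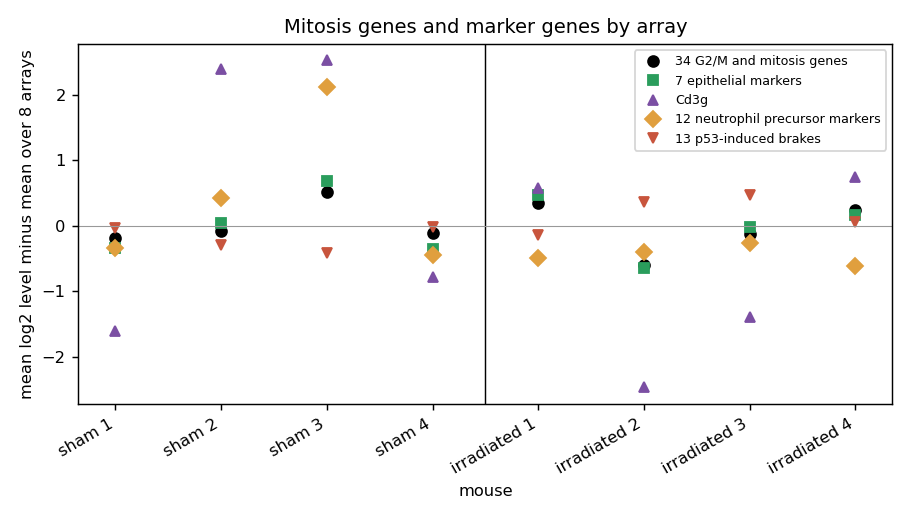
Mean log2 level of the 34 mitosis genes, 7 epithelial markers and 12 neutrophil precursor markers in each mouse. The mean of 13 p53 target and growth arrest genes (labelled p53-induced brakes) and the level of Cd3g are shown too. Each is drawn as the distance from its own mean over the 8 arrays. Mitosis and epithelial means lie close together in every mouse, both highest in sham 3 and lowest in irradiated 2.

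Of 69 further mitosis genes 65 were measured; 27 were higher and 38 lower in irradiated mice, where 42.2% of all genes were higher and 57.8% lower, and their median difference was -0.04. An unadjusted p under 0.05 was reached by 1 upwards and 3 downwards (all genes: 2.05% and 4.03%), and 0 passed after adjustment by limma. Quantile normalization gave 32 higher and 33 lower. Psrc1, which encodes a spindle protein and is a known p53 target, was at 4.91, 4.91, 4.82 and 4.96 in sham mice and at 5.58, 6.16, 6.16 and 5.64 in irradiated mice, with no overlap. Its difference was 0.98 ± 0.15 (limma adjusted p = 0.545). Cenpk, a kinetochore gene, was lower by -0.59 ± 0.20 (limma adjusted p = 0.819). On Cd3g, 48 of the 65 slopes were positive (all genes: 45.6%), with a median of 0.06. An unadjusted p under 0.05 was reached by 14 positive and 2 negative slopes (all genes: 4.98% and 5.71%) and by 0 after adjustment. Whether these genes differed from the 34 was not tested.

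Genes of the G1/S transition and DNA replication act earlier in the cycle. Of 32 measured, 25 were lower in irradiated mice (all genes: 57.8%) and 7 higher, with a median difference of -0.17, and 0 passed after adjustment by limma. An unadjusted p under 0.05 was reached by 6 lower and 2 higher genes, against 4.03% lower and 2.05% higher of all genes. Ccne1, cyclin E1, was at 5.54, 5.40, 5.62 and 5.71 in sham mice and at 4.72, 4.86, 5.30 and 4.75 in irradiated mice. The groups did not overlap, and the difference of -0.66 ± 0.14 had an adjusted p of 0.802 by limma. The replication gene Mcm10 had a difference of 0.35 ± 0.10 (limma adjusted p = 0.819). On Cd3g 20 of the 32 slopes were positive (all genes: 45.6%). An unadjusted p under 0.05 was reached by 4 positive and 1 negative slope (all genes: 4.98% and 5.71%) and by 0 after adjustment.

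Most of the p53 target and growth arrest genes listed here had slopes on Cd3g of the opposite sign to the mitosis genes. In irradiated mice 11 of the 13 measured were higher (all genes: 42.2%), with a median difference of 0.34. Of them 5 had an unadjusted p under 0.05 (all genes higher: 2.05%), and 0 passed after adjustment by limma. Cdkn1a, which encodes p21, was at 11.73, 11.58, 11.39 and 11.93 in sham mice and at 11.84, 12.15, 12.24 and 11.97 in irradiated mice. The groups overlapped through irradiated mouse 1 alone, and the difference of 0.39 ± 0.14 had an adjusted p of 0.819 by limma. Ccng1 and Phlda3 had differences of 1.11 ± 0.21 and 1.07 ± 0.20 (limma adjusted p = 0.589 and 0.545). Against Cd3g the slope was negative in 12 of the 13 (all genes: 54.4%), 6 of them with an unadjusted p under 0.05 (all genes negative: 5.71%), and the median was -0.09. Gadd45b, a stress-induced growth arrest gene named after its values were seen, passed at -0.34 ± 0.06 (limma adjusted p = 0.0433). It passed without irradiated mouse 3 (0.04) but not with any other single mouse left out (0.0548 to 0.199). Irradiated mice 2 and 3 had the highest means of these 13 genes (8.86 and 8.96) and the lowest mitosis means of their group (5.17 and 5.65).

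None of the regulators of the mitosis genes listed here passed by irradiation after adjustment by limma. Of 13 genes, those of the DREAM and MuvB complexes with Mybl2 and Rb1, 11 were lower in irradiated mice (all genes: 57.8%), with a median of -0.15. The MuvB subunits Lin9 (-0.45 ± 0.15) and Rbbp4 (-0.24 ± 0.10) had an unadjusted p under 0.05, against 4.03% of all genes in that direction. Under quantile normalization or subtraction of array medians 1 of the 13 did. Of 6 CDK inhibitors 4 were lower (all genes: 57.8%), among them Cdkn2c (-0.29) and Cdkn1b (-0.25). Cdkn2c alone had an unadjusted p under 0.05 (all genes lower: 4.03%), and 0 of the 6 did under quantile normalization or subtraction of array medians. Of 6 G2 checkpoint genes 5 were lower (all genes: 57.8%). Among them were Atr (-0.43), the sensor kinase of stalled replication, and Chek1 (-0.52), the kinase it activates. Both had an unadjusted p under 0.05 (all genes lower: 4.03%). The 16 measured genes of subunits and regulators of the anaphase-promoting complex were all lower (all genes: 57.8%), with a median of -0.08. However, 5 were higher under quantile normalization and 1 after subtraction of array medians. Of the 16, Cdc23 (-0.34) and Anapc7 (-0.28) had an unadjusted p under 0.05 (all genes lower: 4.03%), and 1 did under quantile normalization.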

How the data were processed

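Total RNA from sorted cells of 8 mice was amplified by ribo-SPIA from 25 ng and hybridised to 1 array each, per the labels' protocols. The deposited values are log2 levels of 34365 rows, which the authors made with RMA and Partek, per the submitters' processing notes; no source used here gives versions, settings or scan batches, and detection calls were not used.

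The platform annotation named 1 symbol for 23521 rows, left 9030 unnamed and gave several for 1814. Of 1082 symbols with several rows the one with the highest mean was kept, leaving 22180 genes. The 2 groups were tested by a two-sided moderated fit (limma 3.58.1, run under R 4.3.3) with Benjamini-Hochberg adjustment across the table and a threshold of 0.05. Slopes on Cd3g came from the same fit with group as a term; Pearson and Spearman correlations used two-sided exact permutation. The scripts were tested on simulated data. The number of arrays limits the precision.

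Full statistics were given for the 6 genes with the smallest p in each fit and for Mki67, Top2a, Cdk1, Plk1 and Foxm1. Of each other cell cycle list the 2 genes with the smallest p by irradiation were named, some by their difference alone. Genes of the cell type lists were not picked by that rule. Cd3g, Cdkn1a, Ptprc, Itgam and Ly6c2 served as checks. Others, such as the keratins, Camp and Bub1, were chosen after their values were seen. The members and all lists were chosen with earlier results of these data known. Alternatives were other normalizations, filters and variance models, array weights, a block for mouse number, arrays left out, and other covariates.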

Additional observations from a re-analysis of the deposited data

Results flagged for a closer look

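In 5 of 80 groups of 4 mice, 1 mouse lay far from the other 3 by Dixon's test at its 95% level, at which some groups are picked out by chance. All 5 were sham groups. Cdk1 in sham mouse 4 was at 7.65, with the other 3 between 7.13 and 7.16. Pbk in sham mouse 1 was at 5.47, with the other 3 between 5.83 and 5.87. Sham mouse 3 stood out in Bub1, at 5.84 against 5.09 to 5.21, in Cenpe, at 6.12 against 5.17 to 5.32, and in the mean of the 34 mitosis genes, at 6.29 against 5.59 to 5.70.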

How the results depend on the processing

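Quantile normalization, subtraction of array medians and the mean of a gene's rows changed no call: 0 genes passed by irradiation and Anln passed on Cd3g. Mouse numbers did not pair the samples, since same-numbered mice correlated at -0.28 to -0.14 in their deviations. With the replicate block 5 genes passed on Cd3g (all genes: 116 of 22179). By irradiation 0 had an unadjusted p under 0.05 with that block (all genes: 1065 of 22180). The block leaves few degrees of freedom. Over the fits that omit 1 array, the count adjusted on Cd3g ran from 0 to 7 and the unadjusted one from 11 to 25. Over all genes these ran from 17 to 139 and from 1969 to 2424. By irradiation the higher genes ran from 8 to 24 and the unadjusted count from 0 to 2. That unadjusted count ran from 1093 to 1403 over all genes. The number passing on Cd3g, 1 in the main setting and 21 with no adjustment, was 0 without sham mice 2 and 3, without sham mouse 3 and irradiated mouse 2, with no group term, within sham, within irradiated mice, with Cd3e or the neutrophil precursor mean in place of Cd3g, and with the epithelial mean as a further term; it was 6 with the epithelial mean in its place. The median slope was 0.24 without sham mice 2 and 3, 0.070 without sham mouse 3 and irradiated mouse 2, 0.26 within irradiated mice, 0.28 on the T and NK mean, 0.72 on the epithelial mean, 0.25 on the precursor mean, and 0.015 with the epithelial mean as a further term, where 18 slopes were positive. The unadjusted count on Cd3g was 6 without sham mouse 3 and irradiated mouse 2, 8 within sham mice and 7 on the precursor mean. It was 2 with the epithelial mean as a further term. Over all genes these unadjusted counts were 1681, 1688, 1809 and 964. The numbers passing over all genes were 21, 71, 4 and 0 in the same settings, against 105 in the main fit. They were 74 with no group term and 172 with Cd3e in place of Cd3g. By irradiation the higher genes numbered 28 without sham mouse 3 and irradiated mouse 2, 25 with Cd3g and 26 with the precursor mean as covariate. Over all genes 8855, 8961 and 8846 were higher in these settings, against 9368 of 22180 in the main fit. Sham mouse 3 was the highest sham mouse and irradiated mouse 2 the lowest irradiated mouse in 28 genes each. Leaving out both therefore raises most differences. Without a correction 1 gene passed by irradiation. This count was 0 with dim genes left out, with a trended and robust variance, with array weights and with the precursor mean as covariate. It was 2 with Cd3g, 4 with the epithelial mean, and 8 without sham mouse 3 and irradiated mouse 2. Over all genes these last 3 settings gave 1482, 1539 and 1300, against 1347 in the main fit.

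Signs of single genes that had not passed also turned. With each array left out, the irradiated minus sham difference ran from -0.083 to 0.57 in Anln, -0.12 to 0.31 in Foxm1, -0.054 to 0.20 in Hmmr, -0.64 to 0.042 in Mki67, -0.18 to 0.10 in Plk1 and -0.39 to 0.31 in Top2a. The slope on Cd3g ran from -0.0078 to 0.15 in Cdk1, -0.081 to 0.11 in Foxm1 and -0.024 to 0.27 in Mki67. Without sham mouse 3 and irradiated mouse 2 the difference was 0.13 in Birc5, 0.16 in Mki67, 0.087 in Nuf2, 0.20 in Plk1 and 0.54 in Top2a, and the slope was -0.13 in Foxm1 and -0.11 in Mki67. Without sham mice 2 and 3 the difference was 0.061 in Plk1 and 0.30 in Top2a, and the slope -0.041 in Foxm1. With Cd3g as covariate the difference was 0.077 in Plk1 and 0.34 in Top2a, and with the precursor mean 0.058 in Mki67, 0.12 in Plk1 and 0.24 in Top2a. With the epithelial mean as a further term the slope was -0.10 in Cdk1, -0.28 in Foxm1, -0.31 in Mki67, -0.061 in Ndc80, -0.0099 in Nuf2 and -0.045 in Plk1. With array weights the difference was 0.0033 in Top2a and the slope -0.0022 in Foxm1. The slope was -0.047 in Cdk1 within sham mice, -0.12 on the precursor mean, and -0.021 in Foxm1 within irradiated mice. The cause was not tested. The settings with the epithelial or precursor mean and that without sham mouse 3 and irradiated mouse 2 were chosen after seeing the data. Within 1 group, 4 arrays leave few degrees of freedom, and levels near or under 4.70 have no detection call to set them apart from background.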

Other observations

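Most genes of mature neutrophils had slopes on Cd3g of the opposite sign to those of the mitosis genes. Of 8 measured, 6 had a negative slope on Cd3g (all genes: 54.4%), 5 of them with an unadjusted p under 0.05 (all genes negative: 5.71%), and the median slope was -0.29. Cxcr2 and Mmp9 passed after adjustment (all genes: 0.473%), each with a limma adjusted p of 0.0412. With 1 mouse left out Cxcr2 passed only without irradiated mouse 3 and Mmp9 only without irradiated mouse 2 or 3; the adjusted p otherwise ran from 0.0675 to 0.127 and from 0.0909 to 0.176. Cxcr2, a chemokine receptor of neutrophils, was at 9.72, 6.95, 7.40 and 9.35 in sham mice and at 6.32, 9.05, 10.04 and 6.69 in irradiated mice, so the mice high in it were those low in Cd3g. By irradiation 6 of the 8 were lower (all genes: 57.8%), with a median difference of -0.34, and 0 had an unadjusted p under 0.05 (all genes: 6.07%). Means of 8 B and plasma cell genes ran from 5.02 in irradiated mouse 3 to 6.26 in sham mouse 3.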
